A study of Mus musculus with 10 samples.

Results

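The cytosolic ribosomal protein genes were followed across 10 Illumina bead arrays of purified mouse neutrophils. Members were chosen by symbol, Rpl or Rps followed by a digit together with Rplp0, Rplp1, Rplp2 and Rpsa, without the Rps6k kinases and without pseudogene symbols. A member also needed a probe with a detection p-value below 0.05 on at least 2 of the 10 arrays, and each gene was read from its probe of highest mean signal. This gave 55 members among 65 genes that matched by name, out of 9744 genes with a detected probe that named them alone. The members were 20 proteins of the small subunit, 26 of the large subunit, 3 of the stalk and 6 paralogs or related genes.

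All mice were female nude NCR animals, which lack a thymus and so have few mature T cells. Blood neutrophils were frozen without culture from control animals (2 arrays) and from animals with tumors of 4T1, a mouse mammary carcinoma line (2 arrays). Further neutrophils of control mice were kept for 2 h in OptiMEM with 0.5% serum in 6 conditions of 1 array each. Recombinant human G-CSF was absent or present, and each was combined with no chemokine, mouse CCL2 or mouse CCL5. The chemokines were at 20 ng/ml, the G-CSF dose is not given in the sources used here, and the labels do not say separately whether G-CSF went into the wells or into the mice. Where replicate arrays came from is not stated either, so p-values measure only the spread between these samples, which may be technical.

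Ribosomal proteins assemble with ribosomal RNA into the small subunit, which decodes the messenger RNA, and the large subunit, which joins amino acids. The acidic proteins Rplp0, Rplp1 and Rplp2 form the stalk of the large subunit, where elongation factors bind. Most ribosomal protein mRNAs begin with a C followed by a stretch of C and T, the TOP motif, through which mTOR signalling and Larp1 control their translation together. Neutrophils leave the bone marrow after rRNA synthesis has fallen, and mature cells make less protein than their precursors, while lymphocytes are rich in ribosomal protein mRNA.

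Between 13227 and 14846 of 45281 probes were detected per array, with a median of 43 to 44 beads behind a probe's signal. Of the 11 genes on the neutrophil list 10 had a detected probe, and 9 to 10 of these were detected on every array. Markers of T, B and NK cells were present as well. Of 16 such genes with a detected probe, 13 and 16 were detected on the control arrays, 7 and 9 on the tumor-bearing arrays. In culture 12 to 14 were detected without G-CSF and 10 to 13 when it was present. Of the 55 ribosomal protein genes 51 were detected on all 10 arrays. The dim members were Rpl22l1, detected on 2 arrays, Rps15a on 3, and Rplp0 and Rps4l on 5 each. The 10 genes that matched by name without reaching detection on 2 arrays were Rpl14, Rpl17, Rpl21, Rpl39l, Rpl6, Rps19bp1, Rps20, Rps23, Rps23rg1 and Rpsa.

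Promoter windows of RefSeq (build GRCm38.p6) were found for 47 of the 55 members. A pyrimidine tract, here a C followed by at least 4 further C or T that overlapped the 15 bases on either side of the annotated start, was present in 36 members (76.6%), against 49.5% of all 27025 genes with a window and 52.2% of the 7966 such genes detected on the arrays. A tract of 8 or more was present in 22 members (46.8%), against 16.3% and 18.1%. The stretches from 35 bases before the start to 15 after it are shown for 6 members that the results below turn on. Capitals mark the tract. They lie at chr9:64173352-64173401 (plus strand) for Rpl4, chr17:27635230-27635279 (minus strand) for Rps10, chr2:39005117-39005166 (minus strand) for Rpl35, chr14:24490643-24490692 (plus strand) for Rps24, chr7:3704006-3704055 (plus strand) for Rps9 and chrX:102189377-102189426 (minus strand) for Rps4x, which had no tract of that length.
Rpl4: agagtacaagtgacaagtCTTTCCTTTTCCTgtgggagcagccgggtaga
Rps10: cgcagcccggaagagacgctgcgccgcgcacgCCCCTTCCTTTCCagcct
Rpl35: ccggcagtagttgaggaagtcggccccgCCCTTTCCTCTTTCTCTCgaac
Rps24: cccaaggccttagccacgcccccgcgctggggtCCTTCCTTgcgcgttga
Rps9: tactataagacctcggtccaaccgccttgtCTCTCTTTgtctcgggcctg
Rps4x: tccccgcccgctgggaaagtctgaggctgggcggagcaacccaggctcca

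A second set is shown because it holds Rpl12 and Rpl10a, the 2 members lowest in tumor-bearing mice. It was picked with the changes of these genes known. The palindrome CTCGCGAG, searched after the sequences had been seen, lay within the 300-base windows of 6 members (12.8%), namely Rpl10a, Rpl12, Rpl26, Rpl27a, Rps19 and Rps6, against 1.04% of all genes with a window and 2.05% of the detected ones. Capitals mark it in the 60 bases before and 5 bases after a start, at chr2:32961652-32961716 (plus strand) for Rpl12, chr17:28328505-28328569 (plus strand) for Rpl10a and chr7:24884532-24884596 (plus strand) for Rps19, which holds 2 copies. The motif CCGGAAG, or CTTCCGG on the other strand, the core bound by ETS factors, was in 20 members (42.6%), against 9.93% and 19.7%. A match of letters is a description of the window and shows no binding.
Rpl12: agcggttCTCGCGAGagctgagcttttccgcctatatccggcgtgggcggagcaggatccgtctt
Rpl10a: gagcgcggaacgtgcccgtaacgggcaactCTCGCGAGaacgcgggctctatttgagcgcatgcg
Rps19: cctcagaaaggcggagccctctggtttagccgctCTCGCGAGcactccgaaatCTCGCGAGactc

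The first comparison set blood neutrophils of mice with tumors against those of mice without. Ribosomal protein genes were lower in the tumor-bearing mice. Of 51 members tested, 27 passed the test as lower and 0 as higher (limma, adjusted p below 0.05 over 7965 genes, 2 arrays a group), with a median log2 change of -0.55 against -0.04 for all genes tested. Over all genes 15.3% were called lower and 10.9% higher. At an unadjusted p below 0.05 the members counted 35 lower and 0 higher. On 43 members both tumor-bearing arrays lay below both control arrays, which held for 35.3% of all genes. The mean log2 signal over the 55 members was 10.53 and 10.51 on the control arrays and 10.00 and 9.91 on the tumor-bearing arrays. Before normalization the median scanner signal of the members was 2266 and 2143 on the control arrays and 1650 and 1648 on the tumor-bearing ones.

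**Figure D1:**
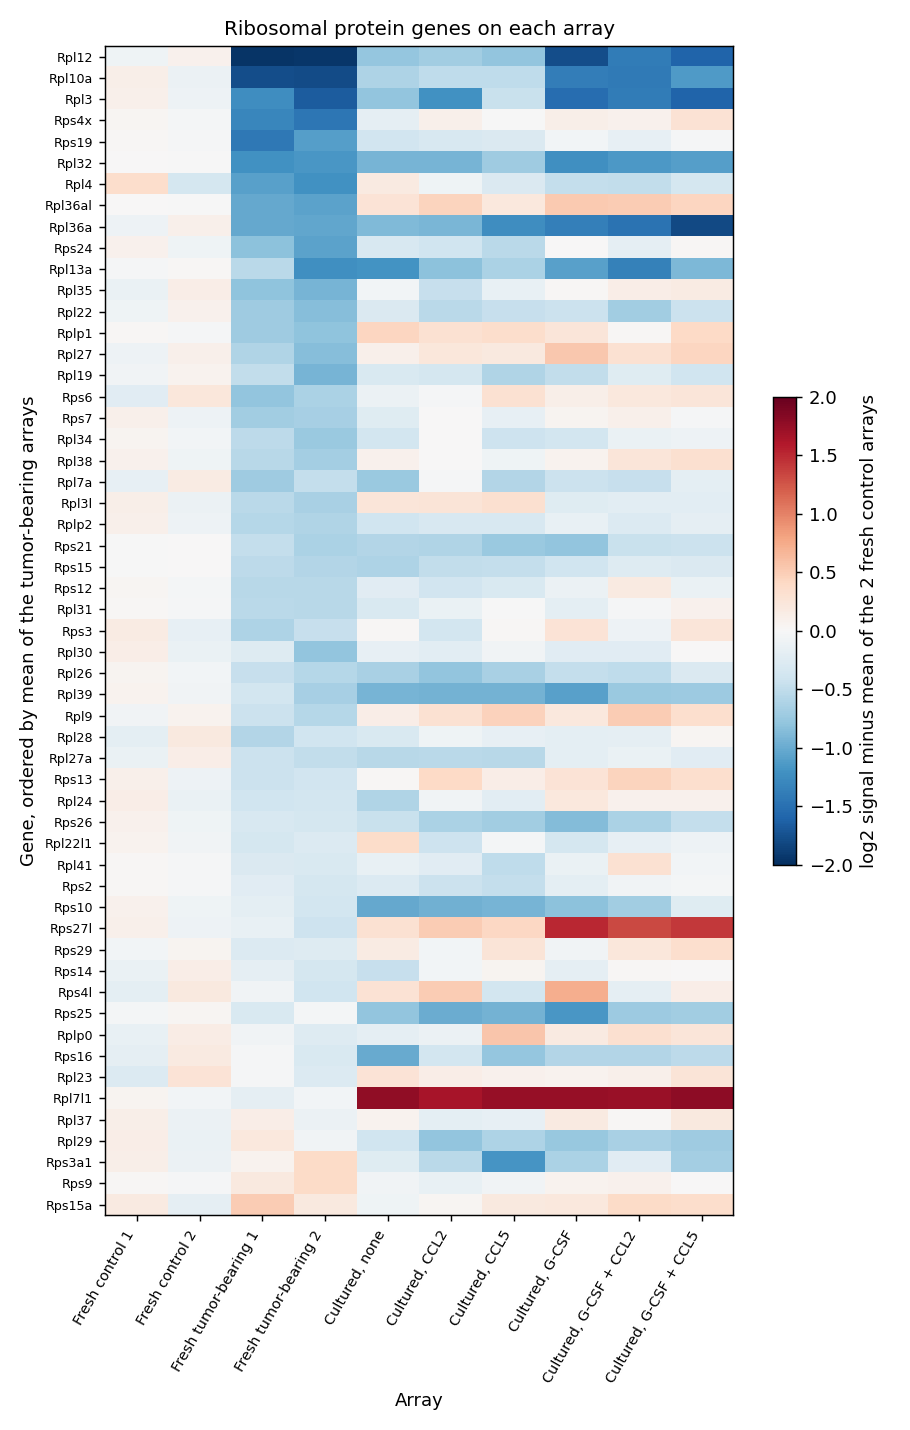
Log2 signal of the 55 ribosomal protein genes (rows, ordered by their mean on the tumor-bearing arrays) on each of the 10 arrays (columns), as the difference from the mean of the 2 fresh control arrays. Blue rows in the tumor-bearing columns mark the genes that were lower there, and the red cells of Rpl7l1 in all 6 cultured columns and of Rps27l in the 3 columns with G-CSF stand out from the rest of the family.

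Markers of other blood cells moved with this difference. Of 15 tested markers of T, B and NK cells 12 were lower and 0 higher, with a median of -1.92, and their mean log2 signal was 7.23 and 7.21 on the control arrays against 5.66 and 5.58 on the tumor-bearing arrays. Cd79b, a chain of the B cell receptor complex, fell by 3.05 on the log2 scale, and Cd3e, which signals with the T cell receptor, fell by 2.25. Over the lymphocyte, monocyte, dendritic cell, eosinophil, red cell and platelet markers together 25 of 34 were lower and 0 higher, while 3 of 10 neutrophil markers were higher and 0 lower, with a median of 0.10. Of 2 tested progenitor markers Kit, the stem cell factor receptor, rose by 3.63 (SE 0.19) and Mpo, a granule enzyme, was at 0.11. The part of these cells in the ribosomal protein result was not tested. In bulk samples such as these, fewer cells of a type and less RNA per cell cannot be told apart.

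The 3 lowest members belonged to the large subunit. Rpl12, a protein at the base of the stalk, had log2 signals of 10.96 and 11.12 on the control arrays and 9.09 on each tumor-bearing array. It was 3.87-fold lower (log2 change -1.95 ± 0.18 SE, adjusted p = 1.2e-05). Rpl10a, a protein of the L1 stalk at which used tRNA leaves the ribosome, had 11.15 and 10.92 in control mice and 9.26 and 9.25 in tumor-bearing mice, a change of -1.78 ± 0.19 (adjusted p = 2.6e-05). Their tumor-bearing arrays thus lay far below the controls with almost no spread between replicates. Rpl3, which reaches to the peptidyl transferase centre, had 11.78 and 11.56 against 10.42 and 10.01, a change of -1.45 ± 0.20 (adjusted p = 2.6e-04). Rpl32 had 11.41 and 11.39 against 10.18 and 10.23, a change of -1.19 ± 0.18. The groups of both genes stood apart by more than the distance between replicates. Rpl4, a large protein whose loop lines the exit tunnel, had 6.97 and 6.26 against 5.53 and 5.39, a change of -1.15 ± 0.23. Its control arrays differed by more than those of the genes above, and the groups did not overlap. Its change was -0.50 on the authors' processed values, -0.76 with an offset of 50 and -0.79 without control replicate 1. Rpl36a (-1.03 ± 0.19) and Rpl35 (-0.87 ± 0.19) followed. In all, 17 of 28 tested large subunit genes, the stalk included, passed as lower and 0 as higher, with a median of -0.61.

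In the small subunit 8 of 19 tested genes passed as lower and 0 as higher, with a median of -0.41. Rps4x, a small subunit protein encoded on the X chromosome, had 11.60 and 11.51 on the control arrays and 10.25 and 10.11 on the tumor-bearing arrays, a change of -1.38 ± 0.19 (adjusted p = 1.8e-04). Rps19, a protein of the small subunit head that is mutated in human Diamond-Blackfan anemia, had 11.53 and 11.49 against 10.08 and 10.41, a change of -1.27 ± 0.19 (adjusted p = 4.8e-04). Both genes were lower on each tumor-bearing array by more than any gap between replicates. Rps24 (-0.94 ± 0.19), Rps6 (-0.71 ± 0.21), the substrate of S6 kinases, and Rps7 (-0.68 ± 0.19) passed as well, with Rps21, Rps15 and Rps12 at -0.56 to -0.55. Rps6 and Rps24 had smaller values than Rps4x and Rps19, a difference that was not tested.

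Of the stalk proteins, Rplp1 had 13.01 and 12.95 in control mice and 12.27 and 12.17 in tumor-bearing mice, a change of -0.76 ± 0.18 (adjusted p = 0.0094). Rplp2 had 12.39 and 12.19 against 11.72 and 11.69, a change of -0.58 ± 0.19 (adjusted p = 0.036). Rplp0 was too dim on the fresh arrays to be tested. Under median scaling, with arrays aligned by their median in place of quantiles, neither stalk gene passed (adjusted p = 0.0999 for Rplp1 and 0.302 for Rplp2). Without tumor-bearing replicate 2 Rplp1 (adjusted p = 0.0678) and Rplp2 (0.144) also missed the threshold, as did Rplp2 without control replicate 1 (0.147) or tumor-bearing replicate 1 (0.107).

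Of the paralogs, Rpl36al, the paralog of Rpl36a, had 9.58 and 9.57 on the control arrays and 8.55 and 8.50 on the tumor-bearing ones, a change of -1.05 ± 0.18, close to that of Rpl36a itself at -1.03 ± 0.19. Rpl3l, which replaces Rpl3 in striated muscle, changed by -0.60 ± 0.19 (adjusted p = 0.036). Whether its probe also binds Rpl3 mRNA was not tested, since no probe sequences were used here. That call was lost under median scaling (adjusted p = 0.195), without a detection filter (0.0578), and without control replicate 1 (0.157), tumor-bearing replicate 1 (0.0839) or tumor-bearing replicate 2 (0.172). Rpl22, which has also been tied to lymphocyte development, changed by -0.78 ± 0.19 (adjusted p = 0.0089). Its change was -0.33 on the authors' processed values and -0.51 with an offset of 50, and its call was lost without tumor-bearing replicate 2 (adjusted p = 0.0723). Its paralog Rpl22l1 was too dim to be tested. Rpl7l1 (-0.12) and Rps27l (-0.28) did not pass.

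**Figure D2:**
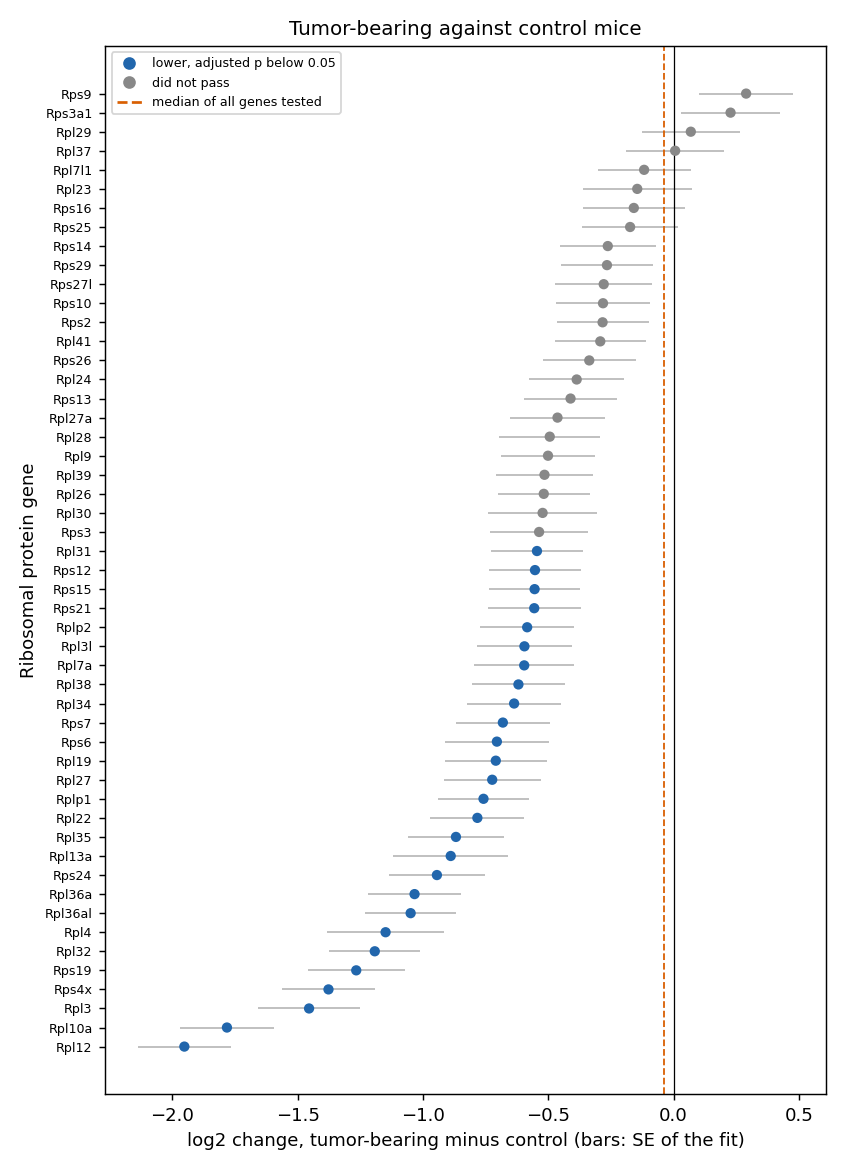
Log2 change between tumor-bearing and control mice for the 51 tested ribosomal protein genes, with the standard error of the fit as bars. Blue points passed as lower and grey points did not pass, and the dashed line is the median of all 7965 genes tested at -0.04. The 27 blue points run from -1.95 for Rpl12 to -0.55, and 4 points lie above 0.

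The family did not move as a block. The standard deviation of the change across the 51 members was 0.46, while the median standard error of a member was 0.19, and 9 members were lower by more than 1 on the log2 scale. Rps9 was not lower. Its log2 signals were 13.89 and 13.85 in control mice and 14.06 and 14.25 in tumor-bearing mice, a change of 0.29 ± 0.19 (adjusted p = 0.279), and its other probe gave 0.02. Rps3a1 (0.23 ± 0.20) and Rpl29 (0.07 ± 0.20) also lay above 0 and did not pass. The members of highest mean scanner signal lay above the family median, with Rpl23 (17070) at -0.15 and Rps9 (15462) at 0.29. Rpl41 (14137) was at -0.29, Rps29 (13832) at -0.27 and Rpl37 (9263) at 0.01. Next in signal came Rplp1 (8566) at -0.76, and a dimmer probe of Rpl23 (5098) gave -0.54. Rps9 read 18029 and 18253 on the tumor-bearing arrays, whose brightest probes read 22141 and 19788. The part of probe brightness in the spread between members was not tested. Rps15a was below detection in control mice (4.71 and 4.37) and detected on 1 tumor-bearing array (5.05 and 4.73), and it was not tested. Members with a tract of 5 or more near the start, as defined above, were called lower in 22 of 33 cases. Their median was -0.60, and those without such a tract were lower in 2 of 11 cases, with a median of -0.39. A tract counted in this way need not begin the mRNA, as that of Rpl4 began at -17 from the annotated start. The 6 genes with CTCGCGAG, a set picked with these changes known, had a median of -0.99, from -1.95 to -0.46, of which Rpl26 and Rpl27a did not pass, and the other 38 had a median of -0.55. These differences between promoter classes were not tested.

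How many members passed depended on the scaling and on single arrays. The count lower was 13 under median scaling and 38 on the authors' processed values, with 0 higher under each. Without tumor-bearing replicate 2 it was 11, without tumor-bearing replicate 1 it was 18, and without control replicate 1 or 2 it was 19 or 23. Rpl12, Rpl10a, Rpl3, Rps4x, Rps19, Rpl32, Rpl4 and Rpl36al passed under every alternative that was run.

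Other genes of the translation machinery were set beside the family. Over all genes tested 15.3% were called lower and 10.9% higher. In ribosome biogenesis 9 of 21 tested genes were lower and 0 higher, with a median of -0.59, among them Nop58 (-1.50 ± 0.19), a core protein of box C/D snoRNPs, and Gar1 (-0.84 ± 0.18), of box H/ACA snoRNPs. Of other mRNAs with a TOP motif 3 of 7 were lower, Hnrnpa1 (-1.09 ± 0.18), Naca and Npm1. Translation initiation factors counted 3 lower and 0 higher of 22, with Eif3i at -1.16 ± 0.19. The translation elongation list, which holds Eef2k and Eef1e1 beside elongation factors, counted 2 lower and 1 higher of 8. On it Eef1a1, which brings aminoacyl-tRNA to the ribosome, was at -0.70 ± 0.19 and Eif5a at 0.84 ± 0.20. Among mitochondrial ribosomal proteins 13 of 63 were lower and 1 higher, with a median of -0.20, Mrpl23 at -1.90 ± 0.21 and Mrps28 at 1.26 ± 0.19. Growth regulators counted 3 higher and 2 lower of 15, with the Myc partner Max at 1.47 ± 0.21 and Ddit4, an inhibitor of mTOR complex 1, at 1.05 ± 0.22.

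**Figure D3:**
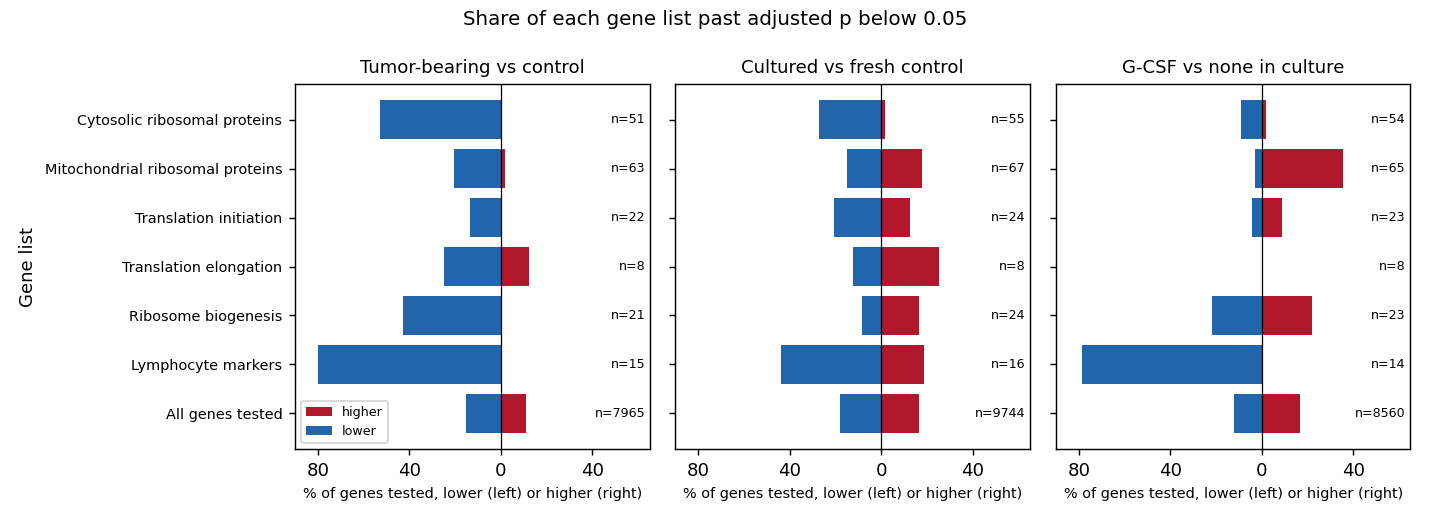
Share of tested genes called higher (red, right) or lower (blue, left) at adjusted p below 0.05, for 6 gene lists and for all genes, in 3 comparisons; n is the number of genes tested. Cytosolic ribosomal protein genes have blue bars and no red bar in tumor-bearing mice, lymphocyte markers have the longest blue bars there and with G-CSF, and mitochondrial ribosomal proteins have the longest red bar with G-CSF.

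The second comparison set untreated culture for 2 h against fresh control neutrophils. Of 55 tested members 15 were lower and 1 higher, with a median of -0.31 against -0.02 for all 9744 genes tested, of which 17.9% were called lower and 16.4% higher. Culture and the handling that came with it cannot be told apart. This comparison shares its 2 control arrays with the first.

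The gene that rose was Rpl7l1, a relative of Rpl7 that is found on precursors of the large subunit in human cells. Its log2 signals were 7.60 and 7.48 in fresh control neutrophils and 7.36 and 7.49 in tumor-bearing mice, and 9.32, 9.19 and 9.28 in culture without G-CSF and 9.28, 9.27 and 9.34 with it. All 6 cultured arrays lay above all 4 fresh arrays. The change was 1.74 ± 0.19 (adjusted p = 1.3e-05), a 3.34-fold rise. Its other probe, detected on 2 arrays, gave -0.07, and the mean of its probes gave 0.84. The other paralogs also lay above 0 and did not pass, with Rps27l at 0.40 ± 0.21, Rps4l at 0.47 ± 0.29, Rpl3l at 0.25 ± 0.20 and Rpl22l1 at 0.10 ± 0.24. Rpl3 itself fell by 0.81 (SE 0.26, adjusted p = 0.026), a call that was lost without either control array (adjusted p = 0.132 without replicate 1 and 0.0536 without replicate 2).

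Rps10, a protein of the mRNA entry site, had 11.59 and 11.43 in fresh control neutrophils and 10.48, 10.55 and 10.58 in culture without G-CSF. The change was -1.11 ± 0.21 (adjusted p = 9.7e-04), and the tumor-bearing arrays, at 11.31 and 11.14, lay close to the fresh controls. Rpl39, a small protein of the exit tunnel, had 12.42 and 12.26 in fresh control neutrophils and 11.42, 11.39 and 11.39 in culture without G-CSF, a change of -1.05 ± 0.21 (adjusted p = 0.0016). Rpl13a, a surface protein of the large subunit that also represses translation of inflammatory mRNAs in human monocytic cells, changed by -1.03 ± 0.26 (-0.46 on the authors' processed values) and Rps25, which serves initiation at some internal ribosome entry sites, by -0.99 ± 0.22. The other members named by size were Rpl32 (-0.92 ± 0.19), Rps16 (-0.88 ± 0.23), Rpl12 (-0.85 ± 0.20) and Rpl36a (-0.85 ± 0.19). Rps16 missed the threshold without control replicate 2 (adjusted p = 0.0818).

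By subunit, 6 of 20 small subunit genes and 9 of 29 large subunit and stalk genes were lower in culture, with medians of -0.34 each. In the stalk Rplp1 (0.40 ± 0.20, adjusted p = 0.132), Rplp2 (-0.34 ± 0.19, adjusted p = 0.203) and Rplp0 (-0.08 ± 0.24) did not pass. Without control replicate 2 the count of lower members was 9 in place of 15. It was 24 on the authors' processed values, with 4 higher. Mitochondrial ribosomal proteins counted 12 higher and 10 lower of 67. These are 17.9% and 14.9%, close to the 16.4% and 17.9% of all genes. Among them were Mrpl4 at 1.45 ± 0.22, Mrps15 at -1.95 ± 0.32 and Mrps12 at -1.33 ± 0.20. Other genes of the fixed lists counted 3 higher and 5 lower of 24 for initiation, 2 higher and 1 lower of 8 for elongation and 4 higher and 2 lower of 24 for ribosome biogenesis. Lymphocyte markers counted 3 higher and 7 lower of 16, with a mean log2 signal of 6.99 on the untreated cultured array. By type, T cell markers counted 3 higher and 1 lower of 7, and B cell markers 0 higher and 3 lower of 6. All 3 NK cell markers were lower. Red cell markers counted 0 higher and 2 lower of 3, with a median of -2.49. Their mean log2 signal was 11.80 and 11.54 on the fresh control arrays and 9.57 on the untreated cultured array. Monocyte markers counted 1 higher and 2 lower of 5, and dendritic cell and MHC class II markers 2 higher and 1 lower of 5. Eosinophil, basophil and mast cell markers counted 0 higher and 2 lower of 5, and platelet markers 0 higher and 1 lower of 3. Of 10 neutrophil markers 5 were lower and 2 higher. The part of all these cells in the culture result was not tested. Among the growth regulators Eif4ebp1, a repressor of cap-dependent initiation downstream of mTOR, fell by 2.33 (SE 0.21).

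**Figure D4:**
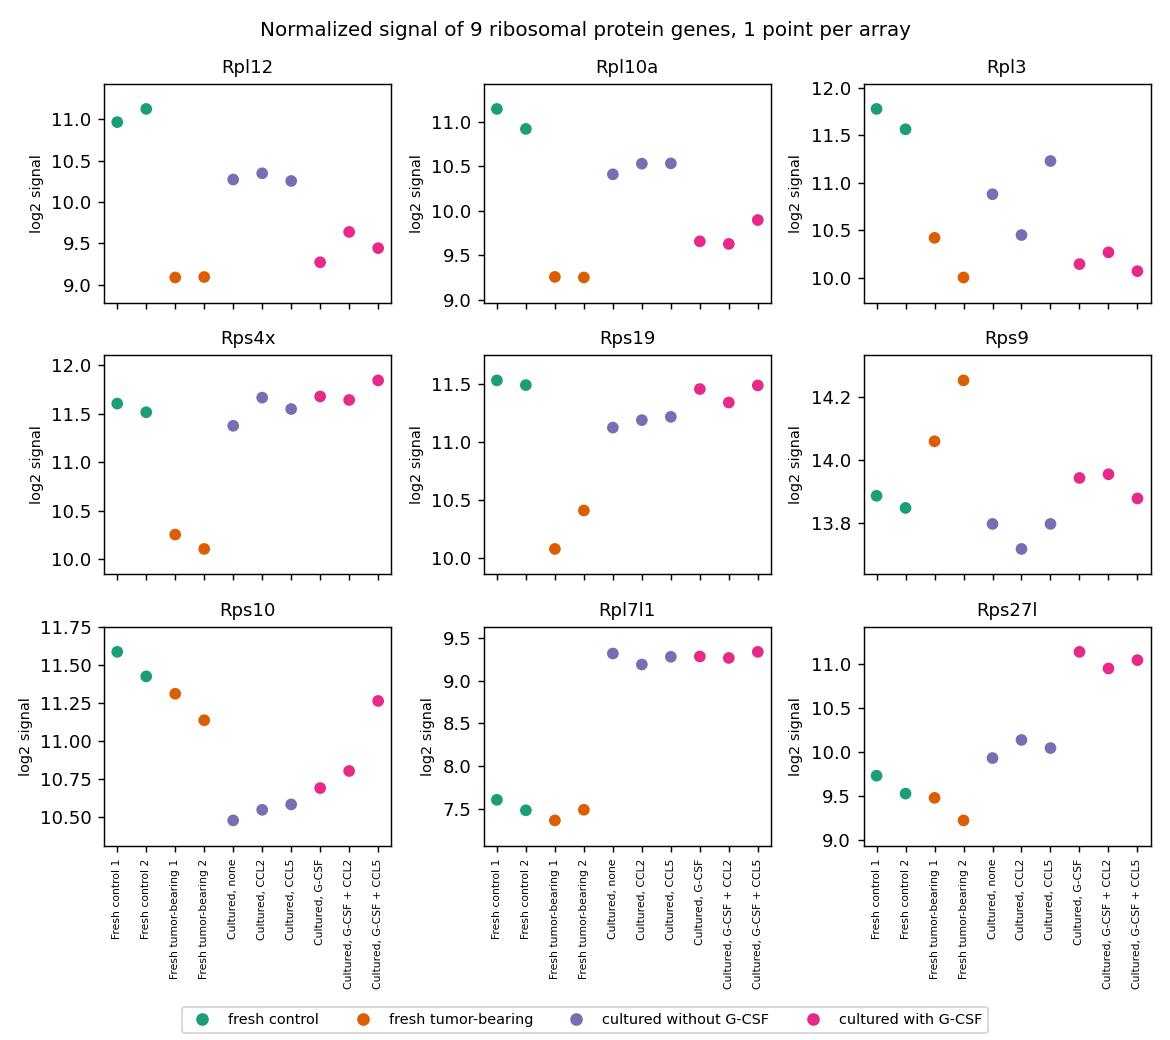
Normalized log2 signal of 9 ribosomal protein genes, 1 point per array, with fresh control in green, fresh tumor-bearing in orange, culture without G-CSF in violet and culture with G-CSF in pink; each panel has its own vertical axis. Rpl12, Rpl10a and Rpl3 are lower in tumor-bearing mice and in culture with G-CSF, Rps4x and Rps19 are low on the 2 tumor-bearing arrays, Rpl7l1 is higher on all 6 cultured arrays than on the fresh ones, and Rps27l is highest on the 3 arrays with G-CSF.

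The third comparison set cultured neutrophils with G-CSF, the cytokine that drives neutrophil production, against those without. Whether it went into the wells or into the mice is not stated, as said above. Most ribosomal protein genes did not pass. Of 54 tested members 1 was higher and 5 were lower, with a median of 0.12 against 0.06 for all 8560 genes tested, of which 16.6% were called higher and 12.2% lower. Over the 3 pairs of arrays that differ by G-CSF (without chemokine, with CCL2 and with CCL5), 22 members were higher in every pair and 7 lower in every pair, against 33.6% and 24.3% of all genes. Each condition is 1 array, and the spread came from an additive fit with 2 residual degrees of freedom.

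The gene that rose was Rps27l, a paralog of Rps27 that is a target of p53 in human cells. Its log2 signals were 9.93, 10.14 and 10.05 without G-CSF and 11.14, 10.95 and 11.05 with it, so that the groups stood clearly apart. The change was 1.01 ± 0.16 (adjusted p = 0.0029), a 2.01-fold rise that was seen in 3 of 3 pairs. Fresh neutrophils had 9.73 and 9.53 in control mice and 9.48 and 9.22 in tumor-bearing mice.

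The genes that fell were all of the large subunit or related to it. Rpl12 had 10.27, 10.35 and 10.25 without G-CSF and 9.27, 9.64 and 9.44 with it, a change of -0.84 ± 0.16 (adjusted p = 0.0058). Rpl10a had 10.41, 10.53 and 10.53 against 9.66, 9.63 and 9.90, a change of -0.77 ± 0.16 (adjusted p = 0.0084). For both genes every array with G-CSF lay below every array without it. Rpl3 had 10.88, 10.45 and 11.23 against 10.15, 10.27 and 10.07, a change of -0.69 ± 0.21 (adjusted p = 0.036), with the arrays without G-CSF widely spread. Rpl36a changed by -0.54 ± 0.15 (adjusted p = 0.030) and Rpl3l by -0.50 ± 0.15 (adjusted p = 0.040). Single arrays decided some of these calls. Those of Rpl36a and Rpl3l were lost without any of the 6 cultured arrays in turn, and that of Rpl3 without the untreated array, the CCL5 array, the G-CSF array or the array of G-CSF with CCL5. Depending on the array left out, 2 to 3 members were called lower.

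Of the 20 small subunit genes 19 lay above 0 and 11 were higher in all 3 pairs, with a median of 0.18, and 0 passed the test. Among large subunit and stalk genes 17 of 29 lay above 0, with a median of 0.06. Over all 8560 genes tested 4765 lay above 0, and 33.6% were higher in all 3 pairs. Rps24 (0.38 ± 0.16, adjusted p = 0.115) and Rpl24 (0.42 ± 0.18, adjusted p = 0.115) had the smallest p among members above 0 that did not pass. Rps4x was at 0.19 ± 0.16. The stalk genes Rplp0 (0.16 ± 0.19), Rplp1 (-0.14 ± 0.16) and Rplp2 (0.14 ± 0.16), as well as Rpl22 (-0.09 ± 0.16) and Rps4l (0.08 ± 0.24), did not pass.

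Directions with G-CSF rest on the scaling. The arrays with G-CSF were brighter, and under median scaling the median change of all genes was 0.42 and that of the members 0.48. Then 32 members were called higher and 0 lower, and the change of Rpl36a turned to 0.00069. Relative to all genes the members lay close to the median under both scalings. Lymphocyte markers moved here too, with 11 of 14 lower and 0 higher, a median of -1.08, and a mean log2 signal of 6.964 to 7.003 without G-CSF and 5.996 to 6.166 with it. Cd79b fell by 1.83 and Cd3e fell by 1.59. Red cell markers (3 of 3 lower, median -1.94) and dendritic cell and MHC class II markers (4 of 5 lower, median -1.03) fell as well, while the progenitor marker Kit rose by 3.17 (SE 0.19). The part of these cells in the changes of Rpl12, Rpl10a and Rpl3 was not tested. Mitochondrial ribosomal proteins counted 23 higher and 2 lower of 65 (35.4% and 3.1%), against 16.6% and 12.2% of all genes. Among them were Mrps12 at 1.30 ± 0.16 and Mrps34 at 1.23 ± 0.16. Ribosome biogenesis counted 5 in each direction of 23, with Ltv1, a factor of small subunit assembly, at 1.31 ± 0.16 and Nop56 at -1.26 ± 0.18, and initiation factors 2 higher and 1 lower of 23. The elongation list counted 0 in either direction of 8, and of other TOP mRNAs 2 of 6 were higher, Vim and Naca.

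The changes with G-CSF were set beside those in tumor-bearing mice, which share no array although all arrays were normalized together. All 5 members lower with G-CSF were among the 27 lower in tumor-bearing mice, which is 100% of the shorter list and 18.5% of the longer. Those 27 were already 52.9% of the 51 members tested in tumor-bearing mice. Over the 7249 genes tested in both fits 351 were lower in each, 36.1% of the 973 lower with G-CSF and 30.5% of the 1151 lower in tumor-bearing mice. The 5 members called lower with G-CSF became 2 to 3 when 1 array was left out and 0 under median scaling, so the overlap rests on few calls. Of the 27, 17 lay above 0 with G-CSF, as did 40 of all 54 members tested there and 4765 of all 8560 genes. Across the 51 genes tested in both, the changes correlated at a Pearson r of 0.55 and a Spearman rho of 0.27, given as a description, since genes are not independent replicates. Rps4x and Rps19, among the lowest in tumor-bearing mice, lay at 0.19 and 0.25 with G-CSF.

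**Figure D5:**
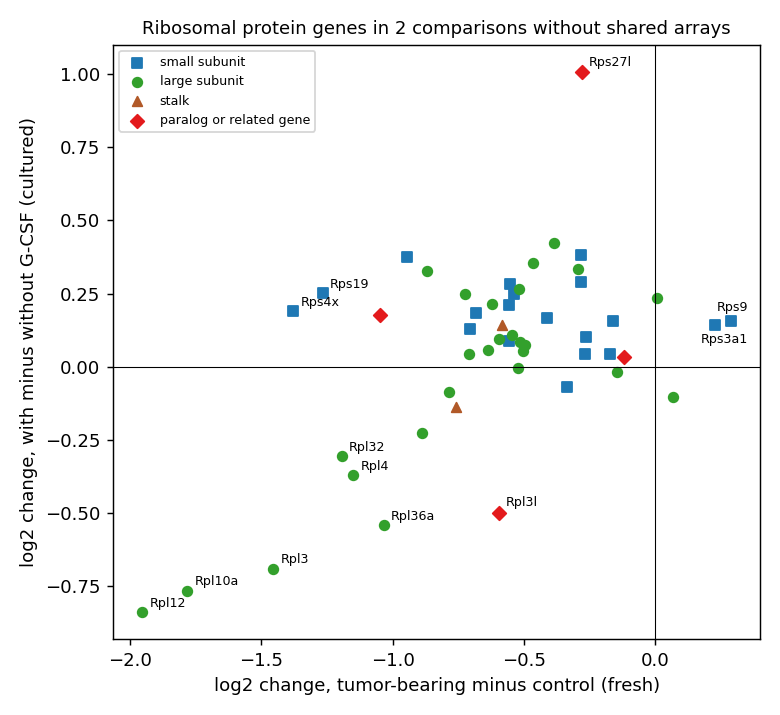
Log2 change in tumor-bearing mice (horizontal) and with G-CSF in culture (vertical) for 51 ribosomal protein genes, by class; the black lines mark 0. Rpl12, Rpl10a, Rpl3, Rpl36a (at 0.00069 vertically under median scaling) and Rpl3l lie low on both axes, most other genes lie left of 0 and near or above 0 vertically, and Rps27l lies alone at 1.01.

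CCL2 and CCL5, chemokines that attract monocytes and lymphocytes, were compared in the same fit. For each, 0 of 54 members and 0% of 8560 genes passed (limma), with 0 members and 439 genes for CCL2, and 0 members and 347 genes for CCL5, at an unadjusted p below 0.05. Member changes ran from -0.38 to 0.34 with CCL2 (median 0.04) and from -0.62 to 0.40 with CCL5 (median 0.07), with a median standard error of 0.20, so a change of this size could not be told from 0 here. With CCL2 the smallest p were those of Rps3 (-0.38 ± 0.19, adjusted p = 0.948), Rps14 (0.30 ± 0.20) and Rpl34 (0.30 ± 0.20). With CCL5 they were those of Rpl36a (-0.40 ± 0.19, adjusted p = 0.993), Rps4l (-0.62 ± 0.30) and Rps3a1 (-0.49 ± 0.25).

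A difference of the chemokine effects with and without G-CSF was tested over 8 group means, with the spread estimated from the replicated fresh groups. Each unreplicated cultured condition is thus taken to vary as those groups do. For each chemokine 0 of 55 members and 0% of 9744 genes passed, and 886 genes for CCL2 and 710 for CCL5 had an unadjusted p below 0.05. The smallest p for CCL2 were those of Rps4l (-1.13 ± 0.41, adjusted p = 0.483), Rpl22l1 (0.97 ± 0.36) and Rpl7a (-0.76 ± 0.39). For CCL5 they were those of Rps3a1 (0.90 ± 0.39, adjusted p = 0.675), Rpl22l1 (0.66 ± 0.36) and Rps26 (0.64 ± 0.36). Rps4l and Rpl22l1 are among the 4 dim members.

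For 13 members 17 other detected probes gave a second reading. Their change in tumor-bearing mice had the same sign as the probe used in 12 of 17 cases, and in 6 of 6 where their mean scanner signal was above 500. In culture the sign was shared in 7 of 17 cases, and in 2 of 6 above that signal. With G-CSF it was shared in 10 of 17 cases, and in 4 of 6 above that signal. Rps24 had a dim probe at 0.35 in tumor-bearing mice against -0.94 for the probe used, and Rps13 had a dim probe at -1.17 in culture, where the probe used did not pass. The second probe of Rps9 gave -0.81 in culture against -0.07.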

How the data were processed

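Signal intensities, bead counts, other values (the beads' standard error) and detection p-values per probe were deposited by the authors as a table that is neither background-subtracted nor normalized. Per the file headers the intensity is the average signal of a probe's beads, the count is the number of beads read and the p-value is that of detection. RNA was extracted with Trizol and labelled with Cy3, per the labels. The authors' processed values, deposited on a log2 scale, matched log2 signals after quantile normalization when checked (largest difference 0.00531) and served as an alternative. Partek is named in the submitters' processing notes. Neither its use and version nor the scanner's software is given in the sources used here.

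Signals were corrected in R 4.3.3 with limma 3.58.1 by normexp, using background levels that nec infers from the p-values of detection (offset 16), taken to log2 and quantile-normalized over 10 arrays. Of 45281 probes 34885 name 1 gene, and genes were tested where their probe was detected (p below 0.05) on 2 or more of the arrays fitted. The tumor comparison used a fit of 4 arrays, culture an additive fit of 10 arrays, G-CSF, CCL2 and CCL5 an additive fit of 6 arrays, and interactions 8 group means. Two-sided limma tests (lmFit and eBayes) were adjusted over all genes by Benjamini-Hochberg, with calls below 0.05, and errors are standard errors of the fit. The fits were tested on simulated data. In the tumor, culture and G-CSF fits 11, 7 and 15 of 67 changes of 0.5 on the log2 scale were recovered. Of 67 changes of 1, 64, 47 and 66 were recovered, and each fit made 16, 5 and 9 false calls in turn. No array was left out. Background correction widens changes of dim probes, and quantile normalization removes differences in array brightness.

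The members, lists and tests were chosen with earlier results of these data known. Named members are the 8 largest rises and falls per comparison that passed the test with groups that do not overlap or pairs that change alike, or the 3 with the smallest p where fewer passed, with the stalk genes and paralogs always given. Up to 2 risers and fallers stand for each other list. Genes given beyond that rule, such as Rpl36a, Rpl35, Rps24, Rps6, Rps7, Rps13, Cd79b and Cd3e, were picked with their values known. Same-numbered replicates were not treated as pairs, since the labels do not state where replicates came from. Deviations of same-numbered fresh arrays correlated at 0.062 over detected probes, which cannot show that pairing was absent. Median scaling, the authors' values, other offsets, filters and probes, left-out arrays and other layouts were tried as alternatives.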

Additional observations from a re-analysis of the deposited data

How the results depend on the processing

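Among named members, 138 of the tumor results, 143 of the culture results and 139 of the G-CSF results counted as unchanged under an alternative. That count includes results that had not passed at first and then changed sign. Rpl29 in tumor-bearing mice was such a case, at 0.07 and from -0.07 to 0.20 with 1 array left out. A further 12, 4 and 21 lost the call, and 0, 4 and 7 gained it. Of the results that had passed, 1 changed sign, Rpl36a with G-CSF, at 0.00069 under median scaling. With median scaling the members lower in tumor-bearing mice numbered 13 (median -0.30), and with G-CSF 32 members were higher, 0 lower (median 0.48) and 4523 genes were called in place of 2472. The share of higher calls among all calls moved from 41.7% to 51.0% in tumor-bearing mice, from 47.8% to 35.02% in culture and from 57.6% to 88.9% with G-CSF. On the authors' processed values the tumor median was -0.50, culture gave 4 members higher and 24 lower, and G-CSF 8 higher. An offset of 50 gave 2 members higher in culture and 5 with G-CSF. The mean of all probes gave a tumor median of -0.50.

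Leaving out 1 array at a time gave 11 to 23 members lower in tumor-bearing mice with 1103 to 1915 genes called, 9 to 10 lower in culture, 2 to 3 lower with G-CSF with 1441 to 2084 genes called, and 0 to 1 genes called for CCL2. For the culture comparison only the 2 fresh control arrays were left out in turn. No cultured array was left out of that fit, so how far its counts rest on a single cultured array was not tested. With the replicate block 28 members were lower in tumor-bearing mice and 2359 genes were called. Whether same-numbered arrays belong together is not stated, and their correlation (r = 0.062) cannot decide it. The other comparisons have no replicate numbers to pair. The causes of these shifts were not tested. Dim members such as Rplp0, Rpl22l1, Rps15a and Rps4l were limited by signal over background.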
